A study of Mus musculus with 4 samples.

Results

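The genes described here are those that the deposited annotation places in the KEGG pathway of protein processing in the endoplasmic reticulum (ER). A gene was taken when its pathway entry held that term and did not hold the spliceosome term. Of 34745 genes in the table, 165 carried the term, 5 of them also carried the spliceosome term (Hspa1a, Hspa1b, Hspa1l, Hspa2 and Hspa8), and 7 more (Atf4, Ddit3, Nfe2l2, Eif2ak2, Bcl2, Bax and Bak1) were set aside by name, which left 153 members. RNA was sequenced from bone marrow derived macrophages (BMMs), the precursors of osteoclasts, of wild-type male C57BL/6 mice aged 8 weeks. After 12 h without FBS, all cells received complete medium with RANKL at 100 ng/mL for 24 h, together with dimethyl itaconate (DI, a cell-permeable ester of itaconate, group RANKL+DI) or with the DMSO vehicle (group RANKL+Veh). The labels give the dose of DI as 20 mM and the study's methods give 20 μM. Each group holds 2 libraries, and there is no group without RANKL. The study's methods speak in general of biological repeats of the in vitro work, more of them than the libraries analysed here, and do not say whether these libraries came from separate cultures or animals. P-values therefore measure the spread between these libraries, which may be technical.

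Secreted and membrane proteins enter the ER through the Sec61 channel, receive N-linked glycans from the oligosaccharyltransferase, and fold with the help of the Hsp70 chaperone BiP (Hspa5), the lectins calnexin and calreticulin, and protein disulfide isomerases. Correctly folded proteins leave in COPII vesicles, while misfolded ones have their glycans trimmed, are drawn back into the cytosol through ligase complexes such as SEL1L-HRD1, are ubiquitinated and extracted by VCP, and are degraded by the proteasome (ER-associated degradation, ERAD). When unfolded proteins accumulate, the sensors IRE1, PERK and ATF6 start the unfolded protein response, which raises chaperone and ERAD genes and slows translation.

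The ER stress element (ERSE), bound by ATF6 together with NF-Y, and its relative ERSE-II are the best known promoter letters of this pathway. A search described below found them in few member promoters. The stretches shown come from some of the landmark genes of folding and ERAD compared below. Dnajb11, a landmark with ERSE-II after its start, and another ERSE of Hsp90b1 are not shown. The remaining landmarks had no match. They were read from RefSeq promoters (GRCm38.p6) of 250 bases before and 50 bases after the annotated start. The sequences run 5′ to 3′ on the strand of the gene, with 20 bases on either side of the element (5 for Hspa5), and capitals mark the fixed letters of the element, in either orientation. The stretches are Hspa5 at chr2:34772020-34772048 on the plus strand, Hsp90b1 at chr10:86705513-86705571 on the minus strand, Calr at chr8:84847055-84847113 on the minus strand, Canx at chr11:50325780-50325838 on the minus strand, Syvn1 at chr19:6046512-6046570 on the plus strand, and Herpud1, which holds ERSE-II, at chr8:94386357-94386407 on the plus strand. The Hspa5 element lies before the RefSeq start but inside the deposited span of the gene, which begins at 34771970.
Hspa5: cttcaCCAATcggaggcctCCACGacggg
Hsp90b1: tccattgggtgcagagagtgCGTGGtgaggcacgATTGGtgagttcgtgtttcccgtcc
Calr: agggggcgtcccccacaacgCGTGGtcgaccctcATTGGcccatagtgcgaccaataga
Canx: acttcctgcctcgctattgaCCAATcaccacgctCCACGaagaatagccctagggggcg
Syvn1: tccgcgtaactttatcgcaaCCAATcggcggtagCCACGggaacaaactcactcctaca
Herpud1: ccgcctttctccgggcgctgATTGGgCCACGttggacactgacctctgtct

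The libraries held 16085692 to 19403480 counts, and no library stood apart in depth. All 10 macrophage markers examined had counts in every library, and their summed level was 29011 to 29812 CPM with DI (counts scaled to library size with TMM factors) and 22809 to 23685 with vehicle. Of 10 osteoclast markers, 8 had counts in every library, with a sum of 714 to 731 CPM with DI and 741 to 764 with vehicle, and Calcr was at 0. Plasma cells are rich in ER genes: 8 of their 9 listed markers were in the table, 4 had counts in every library, the sum was 147 to 151 CPM with DI and 241 CPM in both vehicle libraries, and the defining markers Jchain, Mzb1 and Igkc were at 0. Neutrophil markers summed to at most 11.2 CPM in any library, those of mast cells, erythroid cells and other lymphocytes to less, and the stromal sum was 66.2 to 73.2 CPM in all libraries. In bulk samples such as these, fewer cells of a type and less RNA per cell cannot be told apart.

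DI moved few of the members, and most moved little. Of 153 members, 139 were tested and 14 had too few counts, with 8 of them at 0 in every library and none of the others above 14 counts in any. The quasi-likelihood test of edgeR called 11 of 139 (7.91%) at an adjusted p under 0.05, against 14.8% of the 12590 genes tested. Higher with DI were 9 members (6.47%, against 7.14% of all genes), and lower were 2 (1.44%, against 7.7%). At an unadjusted p under 0.05 there were 33 members (23.7%, against 30.0%). Scaling by library size alone turned the split of 9 higher and 2 lower into 3 higher and 15 lower. Of all genes, 4.35% were then higher and 15.3% lower. Under that scaling the median over all genes was -0.10 on the log2 scale, against 0.00 with TMM, and the members' median lay 0.03 above that of all genes with either. DESeq2 called 10 members higher and 2 lower (against 6.26% and 6.43% of all genes), limma-voom 9 and 3 (against 7.26% and 7.78%), and edgeR's exact test 3 and 1 (against 6.05% and 7.24%).

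The sizes of the differences were small beside those of the other genes. The log2 fold change of RANKL+DI over RANKL+Veh ran from -0.44 to 0.60 over the tested members, with a median absolute value of 0.0814 against 0.163 over all genes. Only 3 members (2.16%) were beyond 0.5 in either direction, against 13.3% of all genes, and 0 were beyond 1, against 2.98%. The members' median was 0.03 with TMM and -0.07 with library size alone, and 89 members (64.0%) lay above 0 with TMM, against 50.2% of all genes. The 95% interval of the log2 fold change lay within 0.5 of 0 for 120 members (86.3%), against 56.8% of all genes. Members were also measured more precisely, with a median standard error (SE) of 0.0632 against 0.0976 and a median level of 6.49 against 4.70 log2 CPM. Among genes above 20 CPM, 10 of 129 members (7.75%) were called, against 21.4% of all such genes. The groups did not overlap for 74 members (53.2%), against 58.6% of all genes, with 51 higher and 23 lower with DI, against 29.0% and 29.6% of all genes.

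The number of calls fell when any single library was left out, among the members and over all genes. Some log2 fold changes moved little over these leave-outs, such as Calr (0.13 to 0.16), Pdia3 (0.14 to 0.15) and Eif2s1 (-0.24 to -0.21). That of Wfs1 ran from 0.46 to 0.77. Leaving out RANKL+DI replicate 1 gave 5 higher and 2 lower (against 5.26% and 5.49% of all genes), and leaving out RANKL+DI replicate 2 gave 7 and 1 (against 4.89% and 5.15%). Leaving out RANKL+Veh replicate 1 gave 4 and 0 (against 4.44% and 4.26%), and leaving out RANKL+Veh replicate 2 gave 3 and 1 (against 4.31% and 4.09%). Without RANKL+Veh replicate 1, 8 members were lower at an unadjusted p under 0.05. Sel1l and Edem2 kept an adjusted p under 0.05 in all 13 alternative fits of the named members, Traf2 in 12 and Wfs1 in 11. The other called members did so in 6 to 8 of the 13.

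**Figure D1:**
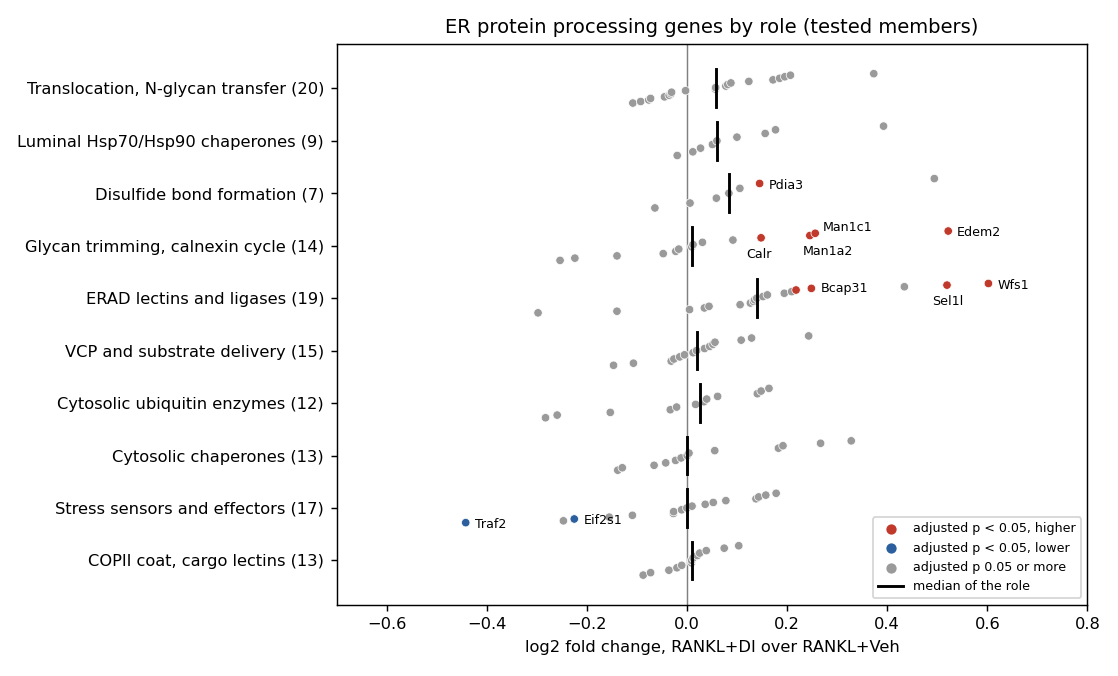
Each point is 1 tested member, placed by its log2 fold change (RANKL+DI over RANKL+Veh, horizontal axis) in the row of its role, with the number of tested members in brackets and the median of the role as a black line. The 11 called members are coloured, and 10 of them are named. The 9 higher ones stand in the rows of glycan trimming, ERAD lectins and ligases and disulfide bond formation, and the 2 lower ones in the row of stress sensors and effectors.

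No gene of the translocation channel or of the machinery that attaches N-glycans was called by edgeR with TMM scaling and all libraries. All 20 members with this role were tested. At an unadjusted p under 0.05, 4 were higher and 2 lower, against 30.0% of all genes in either direction. With library size alone, 3 were called lower (Rpn2, Ssr1 and Ssr3, against 15.3% of all genes). The median log2 fold change was 0.06 and the range -0.11 to 0.37. DESeq2 called 1 of them higher (Dad1), and limma-voom and edgeR's exact test called 0. Sec61a1, the pore-forming subunit of the channel, was at 167 and 158 CPM with DI and at 165 and 171 with vehicle. Its groups overlapped, and its log2 fold change was -0.05 (SE 0.047, edgeR adjusted p = 0.581). The highest value of the role belonged to Dad1, a small subunit of the oligosaccharyltransferase, at 68.0 and 77.4 CPM with DI and at 61.4 and 50.8 with vehicle. Its groups did not overlap, with a log2 fold change of 0.37 (95% interval 0.10 to 0.65, edgeR adjusted p = 0.0795), and edgeR called it higher without RANKL+DI replicate 1 and without RANKL+Veh replicate 1. The other catalytic and accessory subunits of that enzyme (Stt3a, Stt3b, Rpn1, Rpn2, Ddost and Tusc3) lay between -0.09 and 0.20, and the 4 Ssr subunits of the translocon-associated complex between -0.11 and 0.21.

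Hspa5 is the chaperone whose transcript is most often read as a sign of the unfolded protein response, and its libraries disagreed. It was at 425 CPM in RANKL+DI replicate 1, 247 in RANKL+DI replicate 2, and 258 and 254 in the vehicle libraries. One DI library was therefore high, while the other lay below both vehicle libraries. The log2 fold change was 0.39 (95% interval -0.17 to 0.96, edgeR adjusted p = 0.314). It was -0.05 (adjusted p = 0.648) without RANKL+DI replicate 1 and 0.74 (edgeR, adjusted p = 3.48e-04) without RANKL+DI replicate 2, so that 1 library decided both the size and the sign of this value. The cause of the difference between the DI libraries was not tested.

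The other luminal landmarks were closer between libraries. Hsp90b1 (GRP94), the Hsp90 protein of the ER lumen, was at 577 and 556 CPM with DI and at 549.9 and 545 with vehicle. All DI values exceeded the vehicle values, but the log2 fold change was 0.05 (95% interval -0.04 to 0.14, edgeR adjusted p = 0.413). Hyou1, a large Hsp70-like exchange factor of BiP, was at 93.9 and 104 CPM with DI and at 99.8 and 89.8 with vehicle (log2 fold change 0.06, edgeR adjusted p = 0.659). Dnajb11, an Hsp40 co-chaperone of BiP, was at 122 and 124 against 113 and 131 CPM (0.01, edgeR adjusted p = 0.940). Of the 9 luminal chaperones and co-chaperones, edgeR, DESeq2, limma-voom and the exact test each called 0. At an unadjusted p under 0.05 with edgeR, 1 was higher and 0 lower, against 30.0% of all genes in either direction. That one was Dnajc10, a co-chaperone with thioredoxin domains that reduces disulfides of ERAD substrates, at 159 CPM in both DI libraries and at 141 and 144 with vehicle. The log2 fold change was 0.16 (SE 0.041, edgeR adjusted p = 0.0557).

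Among the enzymes of disulfide bond formation, 1 of 7 was called higher and 0 lower (against 7.14% and 7.7% of all genes). Pdia3, the oxidoreductase that works with calnexin and calreticulin on glycoproteins, was at 647 and 651 CPM with DI and at 586 and 588 with vehicle. All DI values were above all vehicle values, and the log2 fold change was 0.15 (SE 0.033, edgeR adjusted p = 0.0359). The call was lost whichever library was left out (log2 fold change 0.14 to 0.15) and with library size alone (log2 fold change 0.04). It was also lost with the exact test and with the replicate number as a block. P4hb, the classical protein disulfide isomerase, was at 621 and 592 against 603 and 605 CPM (0.01, edgeR adjusted p = 0.940). Pdia4 was at 84.6 and 85.5 against 89.9 and 88.0 CPM (-0.06, edgeR adjusted p = 0.452). Txndc5, a disulfide isomerase of the lumen, had the highest value of the role at 0.49, but it rested on RANKL+DI replicate 2, which was at 99.4 CPM while the other DI library and the vehicle libraries were at 56.3, 56.3 and 54.3 (95% interval -0.11 to 1.09, edgeR adjusted p = 0.241). Without RANKL+DI replicate 1, it was called higher. Bmp6 and Gm31834 on the opposite strand overlap 11.9% of its exonic bases, and no source says that counting was stranded.

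Glycan trimming held one of the clearest changes. Edem2 (ENSMUSG00000038312, chr2:155701677-155729475 on GRCm38), which starts the trimming of mannose that marks misfolded glycoproteins for ERAD, was at 106 and 105 CPM with DI and at 75.5 and 71.4 with vehicle. Both DI libraries were far above both vehicle libraries, and the spread within each group was small. The level was 43.6% higher with DI, a log2 fold change of 0.52 (SE 0.054, edgeR adjusted p = 0.00322), and it stayed between 0.42 and 0.56 over the 13 alternatives. Its paralogs were not called. Edem1 was at 358 and 347 CPM with DI and at 338 and 352 with vehicle (0.03), and Edem3 was at 95.7 and 98.6 against 92.0 and 90.4 (0.09).

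Edem2 belongs to the family of class I alpha-mannosidases, of which 7 were members and 3 were called higher and 0 lower (against 7.14% and 7.7% of all genes), with a median of 0.09 and a range of -0.22 to 0.52. Scaling by library size left Edem2 as the only one called higher, and Man1a was called lower. Man1c1, a Golgi enzyme of this family, was at 143 and 133 CPM with DI and at 114 and 117 with vehicle (log2 fold change 0.26, SE 0.052, edgeR adjusted p = 0.0265). Man1a2, another Golgi enzyme, was at 134 and 131 against 113 and 110.4 CPM (0.25, SE 0.045, edgeR adjusted p = 0.0187). In neither did the groups overlap. Man1a, a close relative, was not called with TMM, at 80.5 and 83.3 CPM with DI and 92.4 and 99.0 with vehicle, with a log2 fold change of -0.22 (edgeR, adjusted p = 0.0564). The calls of Man1c1 and Man1a2 were lost with library size alone (0.15 and 0.14) and with the exact test. Both were also lost without RANKL+DI replicate 1 and without either vehicle library. With the replicate number as a block, Man1c1 lost its call and Man1a2 kept it.

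In the calnexin cycle itself, only Calr was called among the lectins. Calr (calreticulin), the soluble lectin chaperone, was at 776 and 790.5 CPM with DI and at 715 and 699 with vehicle. Both DI libraries were above both vehicle libraries, and the log2 fold change was 0.15 (SE 0.034, edgeR adjusted p = 0.0384). That call was lost whichever library was left out (0.13 to 0.16) and with library size alone (0.04). It was also lost with the exact test and with the replicate number as a block. Canx (calnexin), its membrane-bound counterpart, was at 562 and 567 against 559 and 583 CPM, and its log2 fold change was -0.02 (95% interval -0.11 to 0.07, edgeR adjusted p = 0.814). Of the 14 members of glycan trimming and the calnexin cycle, 4 were called higher and 0 lower (against 7.14% and 7.7% of all genes). Their median was 0.01. At an unadjusted p under 0.05, 4 were higher and 2 lower (Man1a and Mogs), against 30.0% of all genes in either direction. Mogs, the glucosidase that removes the outermost glucose, was at 45.6 and 47.7 CPM with DI and at 54.8 and 56.5 with vehicle. The log2 fold change was -0.25 (edgeR, adjusted p = 0.0503), and limma-voom called it lower. DESeq2 and the exact test called 0 of the 14 lower, and the exact test called only Edem2 higher. The split turned round with library size alone, to 1 called higher (Edem2) and 3 lower (Ganab, Man1a and Mogs), against 4.35% and 15.3% of all genes.

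**Figure D2:**
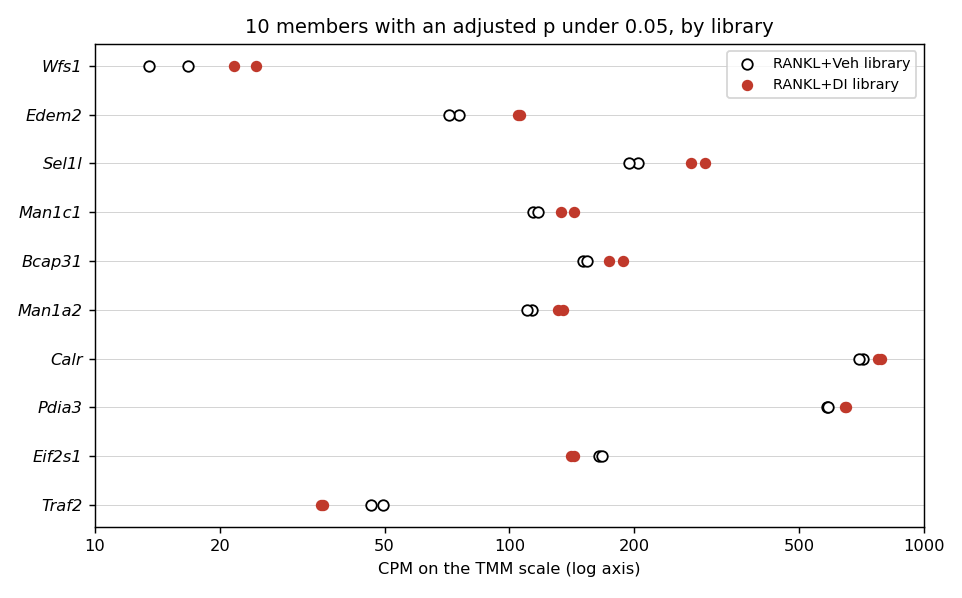
Levels of 10 of the 11 members with an adjusted p under 0.05, in CPM on a log axis, with 1 point per library (open for RANKL+Veh and filled for RANKL+DI). The libraries of the groups do not overlap for any of the 10, and the distance between groups is widest for Wfs1, Edem2, Sel1l and Traf2.

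The membrane complexes of ERAD gave the other clear change. Sel1l (ENSMUSG00000020964, chr12:91806043-91849157), the adaptor that holds the HRD1 ligase complex together and presents substrates to it, was at 296 and 275 CPM with DI and at 205 and 194 with vehicle. Both DI libraries lay well above both vehicle libraries. The level was 43.3% higher, a log2 fold change of 0.52 (SE 0.054, edgeR adjusted p = 0.00322), which ranged from 0.42 to 0.58 over the alternatives. Syvn1, which encodes HRD1 itself, was at 49.2 and 43.7 CPM with DI and at 43.8 and 46.9 with vehicle. Its groups overlapped, and the log2 fold change was 0.03 (95% interval -0.17 to 0.24, edgeR adjusted p = 0.827). Herpud1, a stress-induced subunit of the same complex, was lower in both DI libraries, at 21.7 and 17.9 CPM against 25.0 and 23.6, but did not pass the test (log2 fold change -0.30, 95% interval -0.58 to -0.01, edgeR adjusted p = 0.153). The substrate lectin Os9 was at 238 and 206 CPM with DI and 219 and 184 with vehicle (0.14), and Erlec1 at 29.8 and 35.3 against 30.4 and 28.9 (0.13).

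The highest fold change of all members belonged to Wfs1 (wolframin, ENSMUSG00000039474, chr5:36966104-36989205), an ER membrane protein linked to calcium handling and to restraint of ATF6. It was at 24.4 and 21.7 CPM with DI and at 16.8 and 13.5 with vehicle. The DI libraries were again above the vehicle libraries, and the log2 fold change was 0.60 (SE 0.13, edgeR adjusted p = 0.0343), but the call was lost without RANKL+DI replicate 1 (0.52, adjusted p = 0.0901) and without RANKL+Veh replicate 2 (0.46, adjusted p = 0.0976). Bcap31, a membrane protein that sorts other membrane proteins for export or degradation, was at 188 and 174 against 151 and 154 CPM (0.25, SE 0.051, edgeR adjusted p = 0.0278). The groups of Bcap31 did not overlap, and its call was lost without RANKL+DI replicate 1 and without either vehicle library. It was also lost with library size alone (0.14), with the exact test and with the replicate number as a block.

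Of the 21 lectins, channel subunits and membrane ligases of ERAD, 19 were tested. With TMM, 4 were called higher and 0 lower (against 7.14% and 7.7% of all genes). With the same scaling, 17 of the 19 lay above 0, against 50.2% of all genes. These signs depend on the scaling. With library size alone, the median over all genes was -0.10 and Syvn1 was at -0.07. That scaling called 2 higher (Sel1l and Wfs1) and 0 lower, against 4.35% and 15.3% of all genes. With TMM, the median log2 fold change was 0.14 and the range -0.30 to 0.60, the highest median of the 10 roles. At an unadjusted p under 0.05, 7 were higher and 1 lower, against 30.0% of all genes in either direction. DESeq2 and limma-voom each called 4 higher and 0 lower, and the exact test 2 and 0. Their summed level was 1758 and 1731 CPM with DI and 1549 and 1488 CPM with vehicle. The channel candidates Derl1 (142 and 143 against 132 and 124 CPM) and Derl2 (60.7 and 65.1 against 57.8 and 57.5) were at 0.16 and 0.13, with edgeR adjusted p of 0.0829 and 0.251.

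Of the ERAD and chaperone members that act in the cytosol, none was called by edgeR with TMM scaling and all libraries. Vcp, the ATPase that pulls substrates out of the membrane, was at 293 and 294 CPM with DI and at 272 and 265 with vehicle. The groups did not overlap, and the log2 fold change was 0.13 (SE 0.038, edgeR adjusted p = 0.0757). Its level is uncertain, because 73.0% of its transcript is matched at 99.05% identity by Vcp-rs and 7.26% of its exonic bases are overlapped on the opposite strand. The 15 tested members of the VCP complex and substrate delivery had a median of 0.02 and ran from -0.15 (Ubqln4) to 0.24 (Ubxn6). The level of Ubxn6 is uncertain too, because Chaf1a on the opposite strand overlaps 81.8% of its exonic bases and matches 43.6% of its transcript. At an unadjusted p under 0.05, 2 were higher and 1 lower, against 30.0% of all genes in either direction. The 12 tested cytosolic ubiquitin enzymes had a median of 0.03 and a range of -0.28 to 0.16, with 0 higher and 1 lower at that level. DESeq2, limma-voom and the exact test also called 0 in either set. Rad23b of the first set and Stub1 of the second were called lower with library size alone, against 15.3% of all genes. Without RANKL+DI replicate 1, Ube2d3 of the second set was called lower.

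Among cytosolic chaperones, none was called with TMM scaling either. Library size alone gave 2 called lower (Dnaja1 and Hsp90ab1) and 0 higher, against 15.3% and 4.35% of all genes. Hsp90aa1 and Dnajb1 are heat-inducible members of the Hsp90 and Hsp40 families. Hsp90aa1 was at 464 and 487 CPM with DI and at 453 and 526 with vehicle (log2 fold change -0.04, 95% interval -0.22 to 0.14, edgeR adjusted p = 0.751), and Gm12346 matches 68.7% of its transcript at 99.5% identity, which makes its level uncertain. Dnajb1 was at 38.9 and 37.9 against 41.3 and 36.6 CPM (-0.02, 95% interval -0.22 to 0.17, edgeR adjusted p = 0.887). In both, the libraries of the groups overlapped. Over the 13 tested members of this role, edgeR, DESeq2, limma-voom and the exact test called 0. At an unadjusted p under 0.05 with edgeR, 2 were higher and 0 lower, against 30.0% of all genes in either direction. The median of the role was 0.00 and the range -0.14 to 0.33.

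The sensors of the unfolded protein response showed no change that passed the test. Ern1, which encodes IRE1, was at 74.3 and 70.2 CPM with DI and at 65.7 and 71.3 with vehicle (log2 fold change 0.08, 95% interval -0.09 to 0.25, edgeR adjusted p = 0.509). Atf6 was at 183 and 173 against 174 and 180.0 CPM (0.01, 95% interval -0.11 to 0.13, edgeR adjusted p = 0.919). Their groups overlapped. Eif2ak3, which encodes PERK, does not carry the pathway term in the deposited annotation and is no member. It was at 42.5 and 42.2 CPM with DI and at 43.0 and 41.4 with vehicle, with a log2 fold change of 0.01 (95% interval -0.15 to 0.16, edgeR adjusted p = 0.968). Xbp1, the transcription factor whose mRNA IRE1 splices, was at 108 and 103 CPM with DI and at 98.7 and 90.4 with vehicle. The groups did not overlap, and the log2 fold change was 0.16 (95% interval 0.00 to 0.31, edgeR adjusted p = 0.156). Counts per gene do not separate its spliced from its unspliced form.

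Both members that were lower with DI are effectors of these sensors. Traf2 (ENSMUSG00000026942, chr2:25517982-25546940), the adaptor through which activated IRE1 engages the JNK kinases and which also serves TNF receptors, was at 35.2 and 35.4 CPM with DI and at 49.5 and 46.4 with vehicle. The DI libraries were nearly equal and lay below both vehicle libraries. The log2 fold change was -0.44 (SE 0.067, edgeR adjusted p = 0.0105), and it was -0.40 (adjusted p = 0.0527) without RANKL+Veh replicate 1. Eif2s1 (ENSMUSG00000021116, chr12:78861819-78887010), the alpha subunit of the initiation factor that PERK phosphorylates, was at 141 and 143 CPM with DI and at 164 and 168 with vehicle. Its groups did not overlap either, with a log2 fold change of -0.23 (SE 0.041, edgeR adjusted p = 0.0190), and the call was lost whichever library was left out (adjusted p 0.0554 to 0.0885). Gm12734 matches 27.9% of its transcript at 96.8% identity. Among the 17 tested sensors and effectors, 0 were called higher and 2 lower (against 7.14% and 7.7% of all genes). Their median was 0.00. At an unadjusted p under 0.05, 2 were higher and 2 lower, against 30.0% of all genes in either direction. DESeq2 and limma-voom gave the same counts of calls, and the exact test gave 0 and 1 (Traf2). Library size alone gave 0 higher and 3 lower, with Mbtps1 added to Eif2s1 and Traf2, against 15.3% of all genes lower.

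Genes of export from the ER spanned the narrowest range of the 10 roles. Sec24d, a cargo-binding subunit of the COPII coat, was at 67.8 and 62.4 CPM with DI and at 66.5 and 60.2 with vehicle, so that the groups overlapped (log2 fold change 0.04, 95% interval -0.15 to 0.23, edgeR adjusted p = 0.790). The 13 tested coat subunits and cargo lectins ran from -0.09 to 0.10 with a median of 0.01. None of edgeR, DESeq2, limma-voom and the exact test called any of them, and 0 passed an unadjusted p under 0.05 with edgeR. With library size alone, 2 of them (Sar1a and Sec24c) were called lower, against 15.3% of all genes.

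**Figure D3:**
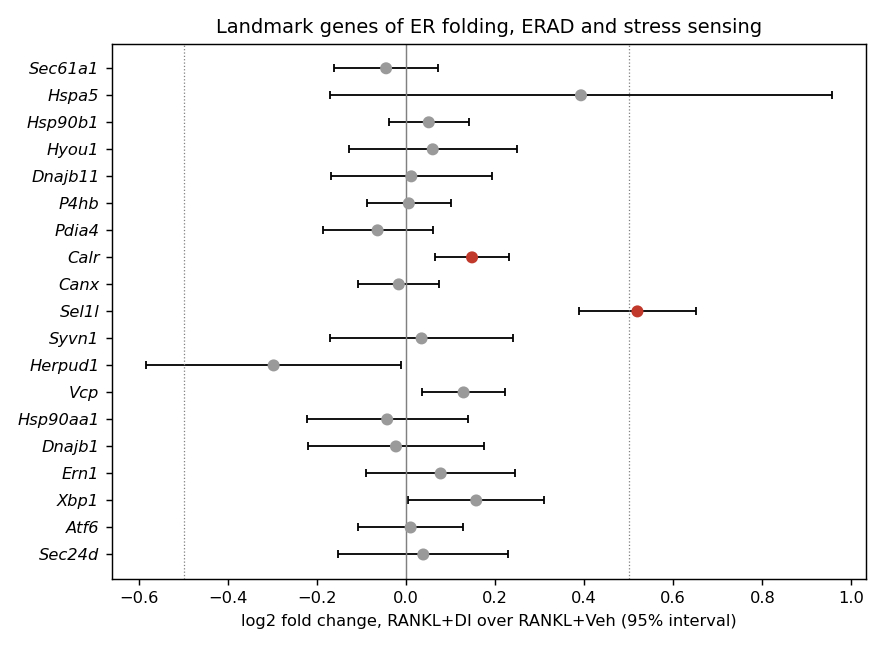
Log2 fold changes (RANKL+DI over RANKL+Veh) of 19 landmark members with their 95% intervals, with called members in red and dotted lines at -0.5 and 0.5. The intervals of Sel1l, Calr, Vcp, Xbp1 and Herpud1 do not include 0, only Sel1l and Calr were called, and the intervals of Hspa5, Sel1l and Herpud1 reach beyond the dotted lines.

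Of the 128 members that were not called, 113 had a 95% interval within 0.5 of 0. This limit is coarse, because most called changes were smaller than 0.5 and the spread between these libraries may be technical. The other 15 of the 128 had intervals that reached beyond 0.5, so that these libraries leave a change of that size possible. They were Hspa5, Herpud1, Ube2g2, Ube2j2, Svip, Dnajb2, Bag2, Ube2d3, Park2, Ube2e2, Txndc5, Uggt2, Mapk8, Ppp1r15a and Dad1. Among these, Svip, a small inhibitor of ERAD, was at 5.94 and 6.08 CPM with DI and at 4.51 and 4.38 with vehicle (log2 fold change 0.43, 95% interval 0.08 to 0.79, edgeR adjusted p = 0.105). The low levels of Svip, Bag2, Park2 and Uggt2, which were all under 10 CPM, limit what these libraries can show of them.

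For 8 members (5.76%, against 12.0% of all genes), the libraries of 1 group differed by more than 1.5 times. Above 20 CPM there were 6 of 129 (4.65%), against 2.96% of all such genes. Ube2g2, a ubiquitin-conjugating enzyme that serves ERAD ligases, was at 34.7 and 64.1 CPM with DI and at 65.8 and 32.6 with vehicle. One library of each group was low, and the difference between groups was 0.00 (95% interval -0.95 to 0.96). Ube2d3, a ubiquitin-conjugating enzyme of broad use, was at 335 and 209 CPM with DI and at 330.3 and 332 with vehicle, so that RANKL+DI replicate 2 alone was low (log2 fold change -0.28, 95% interval -0.77 to 0.21, and called lower without RANKL+DI replicate 1). Ppp1r15a (GADD34), the stress-induced subunit of the phosphatase that acts on Eif2s1, was at 17.5 and 26.8 CPM with DI and at 22.1 and 23.1 with vehicle (-0.03). No library was the odd one in all 8 members, and the causes were not tested.

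**Figure D4:**
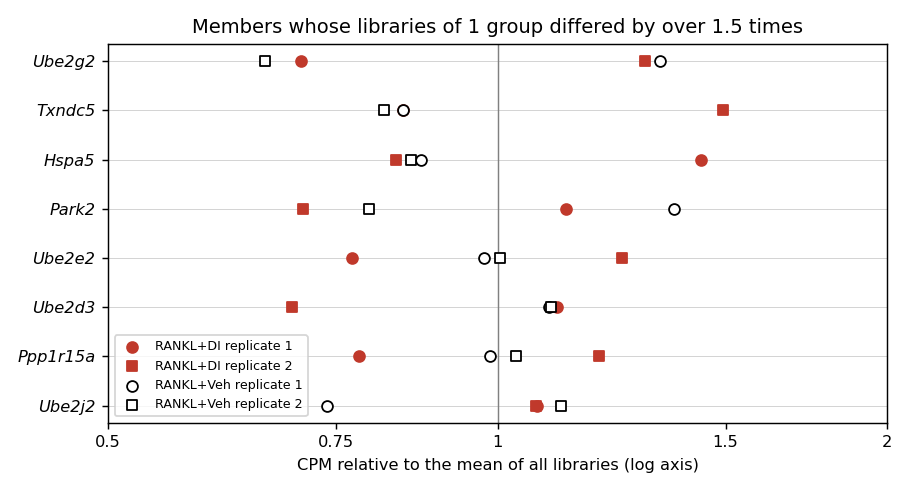
Levels of the 8 members whose libraries of 1 group differed by more than 1.5 times, each divided by its mean over all libraries (log axis), with 1 symbol per library. RANKL+DI replicate 1 stands alone on the high side for Hspa5, RANKL+DI replicate 2 for Txndc5, and RANKL+DI replicate 2 alone on the low side for Ube2d3.

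The promoter letters shown above were searched in all members. The search for ERSE (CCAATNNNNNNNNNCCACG, both strands) found it in 9 of the 153 RefSeq promoters that belong to 125 matched members (5.88%), against 0.119% of 32851 promoters in all. The carriers were Calr, Canx, Derl3, Dnajc3, Ero1lb, Hsp90b1, Hspa5, Pdia6 and Syvn1. Of the 8 tested, 1 was called higher (Calr, against 7.14% of all genes), and their log2 fold changes ran from -0.02 to 0.39 with a median of 0.07. ERSE-II (ATTGGNCCACG) was in 2 member promoters (1.31%, against 0.0365%), those of Dnajb11 and Herpud1, at 0.01 and -0.30. The core of the unfolded protein response element bound by XBP1 (TGACGTGG) was in 6 (3.92%, against 0.676%), of which none was called by edgeR, DESeq2, limma-voom or the exact test and 1 (Vcp) was higher at an unadjusted p under 0.05 with edgeR. The core of the antioxidant response element bound by NRF2 (TGACNNNGC) was in 33 promoters (21.6%, against 12.4%) of 31 members. Of these members, 29 were tested, with a median of 0.01. Among them, 2 were called higher (Calr and Pdia3) and 1 lower (Traf2), against 7.14% and 7.7% of all genes. The cores can overlap, so that 1 site can count for both. A match in a window is a description of letters only, and 28 members had no matching RefSeq entry.

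Levels between genes were compared per length, with the authors' FPKM values averaged over each group. Hsp90ab1 was the highest member, at 225 FPKM with vehicle and 200.1 with DI, followed by Calr (172 and 178), P4hb (166 and 155), Pdia3 (154 and 158), Bcap31 (129.5 and 143) and Hsp90b1 (105 and 101). These were the 6 members above 100 FPKM with vehicle. Of them, 3 were called higher (Calr, Pdia3 and Bcap31), against 7.14% of all genes, and all 3 lost the call with library size alone. Calls were more frequent among well expressed genes, with 21.4% of all genes above 20 CPM called in either direction. The member counts summed to 1.83% and 1.81% of all counts with DI and to 1.90% and 1.90% with vehicle, while their summed CPM on the TMM scale was 19062 and 18752 against 18313 and 18390. The share of counts and the TMM scale thus differ in direction.

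Genes of ER function that lie outside the pathway term were examined in 6 lists. Of 106 tested, 5 were called higher and 2 lower (6.60% in all, against 14.8% of all genes). The largest change among the called genes was that of Spcs1, a subunit of the signal peptidase that cuts the signal sequence of proteins entering the ER. It was at 90.5 and 101 CPM with DI and at 50.9 and 51.2 with vehicle (log2 fold change 0.91, SE 0.071, edgeR adjusted p = 0.00148). Both DI libraries stood far above the vehicle libraries, while Sec11c, a catalytic subunit of the same enzyme, was lower, at 106 and 101 against 127 and 131 CPM (-0.32, SE 0.049, edgeR adjusted p = 0.0115). In the list of lipid-linked oligosaccharide synthesis, 2 of 23 were called higher and 0 lower (against 7.14% and 7.7% of all genes). The higher of the 2 was Dhdds, the catalytic subunit that builds the dolichol carrier of N-glycans. It was at 50.4 and 39.5 CPM with DI and at 23.9 and 26.6 with vehicle (0.83, SE 0.13, edgeR adjusted p = 0.0117). The other was Srd5a3, which makes dolichol from polyprenol and lost its call with the exact test, with library size alone and whichever library was left out. The call of Dhdds was lost without RANKL+Veh replicate 1, and that of Sec11c without RANKL+Veh replicate 2. The lowest gene of that list was Alg6, a glucosyltransferase, at -0.37 (edgeR, adjusted p = 0.0683), which was called lower with library size alone.

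The remaining lists held few calls. Of 22 ER stress response genes without the pathway term, edgeR, DESeq2, limma-voom and the exact test called 0. At an unadjusted p under 0.05 with edgeR, 6 were higher and 1 lower, against 30.0% of all genes in either direction. The median of this list was 0.06. Its extremes were Fkbp11 (-1.28, with 5 to 15 counts per library, edgeR adjusted p = 0.101) and Mesdc2 (0.40, edgeR adjusted p = 0.488). Mesdc2, at 63.9 and 56.6 CPM with DI and at 63.0 and 27.9 with vehicle, was low in RANKL+Veh replicate 2 alone and was called higher without RANKL+Veh replicate 1. Sdf2 was called higher without RANKL+DI replicate 1. Of 23 tested KDEL receptors, COPI coat and p24 family members, 1 was called higher and 0 lower (against 7.14% and 7.7% of all genes). It was Kdelr1, which returns escaped chaperones to the ER, at 65.4 and 65.5 CPM against 55.0 and 55.1 (0.25, edgeR adjusted p = 0.0370). The lowest of this list was Sec16a (-0.12). The call of Kdelr1 was lost with DESeq2, with the exact test, with library size alone and whichever library was left out. Of 14 genes linked to ER-phagy, 1 was called higher and 1 lower (against 7.14% and 7.7% of all genes). These were Fam134b (0.28, edgeR adjusted p = 0.0355) and Rtn3 (-0.28, edgeR adjusted p = 0.0273). The highest of this list was Tex264 (0.49, edgeR adjusted p = 0.0833), which DESeq2 and the exact test called higher. Fam134b lost its call with the exact test, with library size alone and whichever library was left out, and Rtn3 in all leave-outs but that of RANKL+DI replicate 1. Of the 11 genes of the ER membrane protein complex, 0 were called by any of the 4 tools, 1 was higher at an unadjusted p under 0.05 with edgeR, and the range ran from -0.13 (Mmgt1) to 0.25 (Emc9). The 6 lists held, with library size alone, 2 genes called higher (Spcs1 and Dhdds) and 8 lower (Sec11c, Srp68, Alg6, Alg10b, Copz1, Tmed10, Atl3 and Rtn3), against 4.35% and 15.3% of all genes.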

How the data were processed

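RNA was sequenced from BMMs cultured with RANKL and DI or vehicle, with 2 libraries per group, grouped by their labels. The authors deposited raw counts per gene and library, and FPKM values, which were used here only to compare levels between genes. The submitters' processing notes name GRCm38 and mm10, while the aligner and the counting program are not given in the sources used here. The deposited fold changes and p-values were not used. The symbol of 1 member had been stored as a date and was restored from its gene ID as March6.

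Counts of all genes were fitted in R 4.3.3 with edgeR 4.0.16 (TMM, default filter on low counts, quasi-likelihood test, no covariates) and adjusted by Benjamini-Hochberg over 12590 genes. With 2 residual degrees of freedom before moderation, only changes well above the spread of replicates can pass. A floor of 3 counts corresponds to 0.160 to 0.180 CPM, and floors cover counting error only. Alternatives were DESeq2 1.42.0, limma-voom (limma 3.58.1), edgeR's exact test, other scalings and filters, the replicate number as a block, and each library left out. The steps were tested on simulated data. All 153 members were found in GENCODE M21, 28 overlapped another gene by over 5% of their exonic bases, and 20 had a near-identical transcript (95% or more identical over 20% or more of its length by BLAST+ 2.17.0).

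Members, roles, lists and tests were chosen with earlier results of these data known. Genes named are the 8 highest and 8 lowest called members whose groups do not overlap, the highest and lowest of these in each role, fixed landmarks, and the extremes of each further list. Any other gene named was chosen after its values were seen. A called gene that this rule includes is not reported here.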

Additional observations from a re-analysis of the deposited data

How the results depend on the processing

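The 9 members higher and 2 lower with DI, and the median log2 fold change of 0.0347, changed as follows. With upper quartile factors there were 4 lower (8.05% of all genes) and the median was 0.0265. With library size alone there were 3 higher and 15 lower, and the median was -0.0690 against -0.102 over all genes. The exact test gave 3 higher and 1 lower, and an adjusted p under 0.01 gave 2 higher and 0 lower (2.94% and 2.8% of all genes), with 9 lower at an unadjusted p under 0.05. Leaving out 1 library gave 3 to 7 higher, 0 to 2 lower and a median of 0.0324 to 0.0471, with the lone library assumed to vary like the other group. Limma-voom gave a median of 0.0313, and the 111 members without overlapping exons or low counts gave 0.0439. DESeq2 size factors, DESeq2's Wald test, no filter and a minimum of 10 counts kept 9 or 10 higher and 2 or 3 lower. Same-numbered libraries did not deviate together (correlation -0.0302 over genes), so the numbers are not shown to pair them. With the replicate number as a block, 4 were higher and 2 lower (5.44% and 5.59% of all genes) and the median was 0.0313. Over 28 members fixed by rule and 13 alternatives (364 values), 45 lost their call, 1 gained one (Hspa5 without RANKL+DI replicate 2) and 0 called values reversed. Members outside these 28 also gained calls, with library size alone or with 1 library left out. The causes were not tested.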

Other observations

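Of the 14 members with too few counts to test, 6 had counts in at least 1 library. Casp12, a caspase of the ER, counted 0 and 9 reads with DI, against 6 and 10 with vehicle. Cryab, a small heat shock protein, gave 3 and 7 reads with DI, against 2 and 7, and Sec31b, a coat subunit, had 8 and 10 against 14 and 7. Derl3, the Derlin most often found in secretory cells, gave 1 and 0 reads with DI, against 2 and 1. No fold change is given for these genes.

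Tmed2, a p24 family receptor of COPI vesicles that is no member, was at 6.12 and 111 CPM with DI and at 102 and 2.58 with vehicle (edgeR, adjusted p = 0.963). The low libraries were RANKL+DI replicate 1 and RANKL+Veh replicate 2, which were also the low ones for Ube2g2.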
